A study of Mus musculus with 6 samples.

Results

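The voltage-gated calcium channels of neurons are built around a pore subunit that is escorted by auxiliary proteins, and the genes of 2 auxiliary families are described here: Cacnb1, Cacnb2, Cacnb3 and Cacnb4, which encode beta subunits, and Cacna2d1, Cacna2d2 and Cacna2d3, which encode alpha2delta subunits. They were chosen by gene name. All 7 were found, among 15939 genes catalogued in the series. The samples were nucleus accumbens tissue of C57BL/6N mice, a ventral striatal region of the reward system, taken after conditioned place preference training. This is a procedure in which an animal learns to associate a compartment with an injection. Training was with saline in 1 group and with morphine, an opioid receptor agonist, in the other, with 3 samples in each (the study's design text gives 6 mice per group). No label gives the age, sex, dose or training schedule. Nothing in the labels says how mice were combined into samples, so p-values measure the spread between these samples only. In bulk tissue, fewer cells of a type and less RNA per cell cannot be told apart.

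Beta subunits are cytoplasmic proteins that bind the loop between the first and second repeats of the pore subunit, help it reach the membrane and set how fast the channel opens and inactivates. They vary most at their N-terminus, which is encoded by alternative first exons, and some N-terminal forms are anchored to the membrane by lipid. Alpha2delta subunits are extracellular, are cut from 1 precursor into a pair of linked chains, and raise the number of channels at the surface and at presynaptic terminals. Gabapentin and pregabalin bind Cacna2d1 and Cacna2d2 products.

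Each library's file is a catalogue of transcript events: first exons, last exons, skipped exons, retained introns and alternative exon ends, in transcripts assembled from that library. The values are therefore event numbers per library and not levels of expression. An event is distinct by its type, its splice positions and its strand. A skipped exon or alternative exon end is recorded where forms with and without it were both assembled, so an unlisted event does not say which form was present. The libraries held 54641 to 58007 distinct events in 14121 to 14791 genes, and their read depth is unknown. Every library listed all 10 markers of striatal medium spiny neurons, and also all 4 markers of cortical glutamatergic neurons; a listing gives no level of either. Markers of choroid plexus and ependyma differed between libraries, with 5, 4 and 4 of 5 listed under saline and 3, 4 and 3 under morphine (8 to 10 and 6 to 9 events). Their part in the results was not tested. Of 3 vessel markers, Cldn5 was in no library. Events are recorded by splice positions, so a gene without a listed event may still be expressed.

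The 7 genes had 45 distinct events, of which 21 (46.7%) were listed in all 6 libraries and 13 in 1 library. Over all genes, 20.9% of 128790 events were in all 6 libraries. The events of the family that recurred in every library were 11 of 21 first exons, 6 of 11 last exons and 4 of 5 skipped exons. None of 6 retention events and neither of 2 alternative exon ends did. Over all genes, 1.51% of 24972 retention events and 8.85% of 17089 alternative exon ends recurred in every library. The family's 6 and 2 events are too few to show a difference from these low shares. For the other classes the shares over all genes were 29.8% of first exons, 32.1% of last exons and 18.3% of skipped exons. The 35 events with annotated splice sites or exons made up 77.8% of the family's events, against 63.6% over all genes. Of the 32 first and last exons, 16 had, in every library that listed them, both ends of 1 annotated exon to the base. No source used here says whether an annotation guided the assembly.

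**Figure D1:**
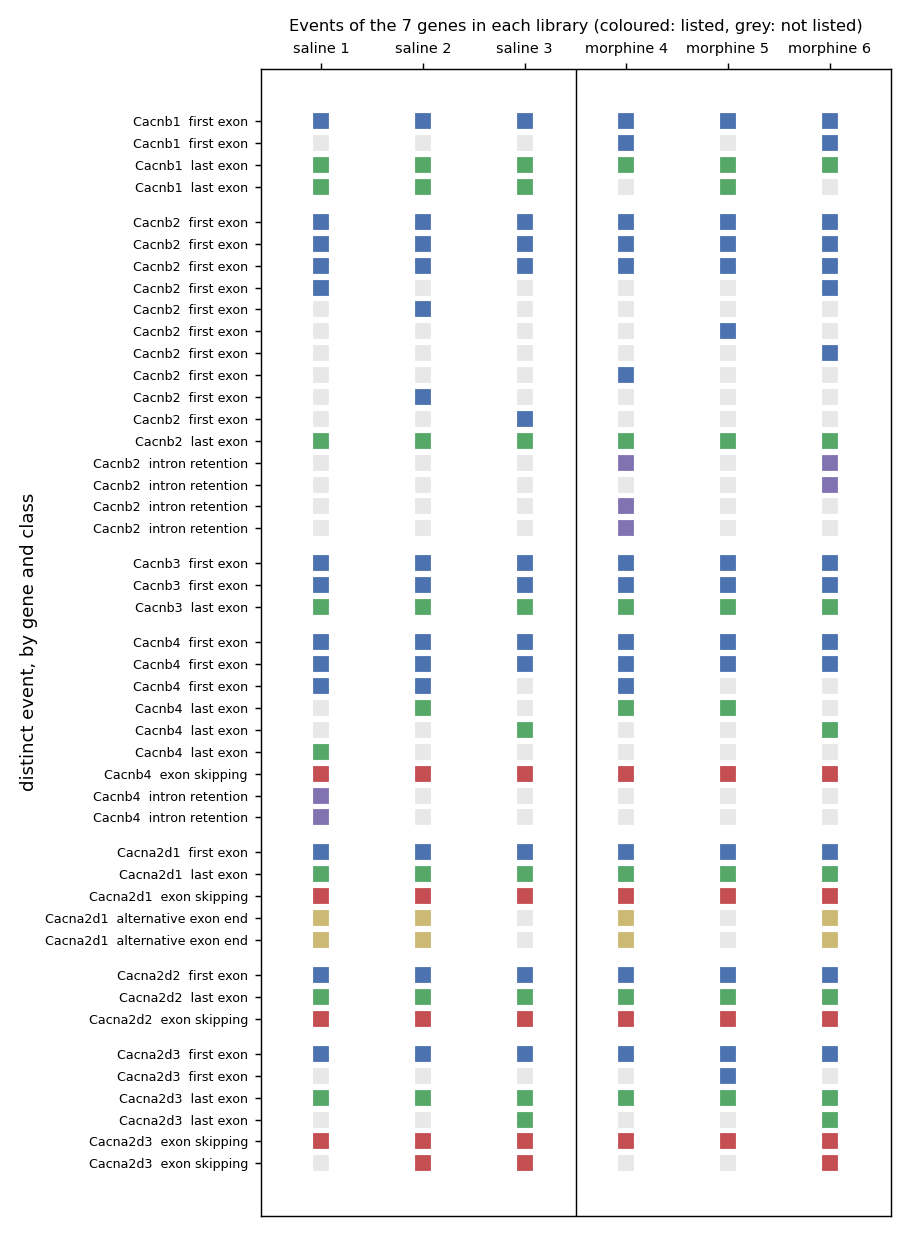
Each row is 1 of the 45 distinct events of the 7 genes, grouped by gene and coloured by class, and each column is 1 library (3 saline left of the line, 3 morphine right of it). Grey squares mark libraries that did not list the event. No row is filled in all libraries of 1 group and empty in all libraries of the other.

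The sequences of the optional coding segments are shown here because they are what the listed splicing choices would add to or remove from the alpha2delta proteins. They were read from GENCODE M21 transcripts (build GRCm38), 5′ to 3′, with the optional segment in capitals and 15 bases of each neighbouring exon or exon part in lower case.
Cacna2d1, 21-base exon, chr5:16341990-16342010, plus strand: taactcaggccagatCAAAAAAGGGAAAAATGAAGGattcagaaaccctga
Cacna2d2, 21-base exon, chr9:107519179-107519199, plus strand: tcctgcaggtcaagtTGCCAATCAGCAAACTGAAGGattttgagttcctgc
Cacna2d3, 18-base exon, chr14:29124666-29124683, minus strand: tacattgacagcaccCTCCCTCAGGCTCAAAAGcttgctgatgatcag
Cacna2d1, 15 bases gained at an exon start, chr5:16326312-16326326, plus strand: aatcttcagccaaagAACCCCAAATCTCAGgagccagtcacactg
Cacna2d3, 81-base penultimate exon, chr14:28907988-28908068, minus strand: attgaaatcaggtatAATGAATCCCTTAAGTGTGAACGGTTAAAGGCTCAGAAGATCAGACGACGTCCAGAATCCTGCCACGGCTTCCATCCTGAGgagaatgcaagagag

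Cacna2d1, the high-affinity gabapentin target, lies on chromosome 5 from 15934691 to 16374511 and had 5, 5 and 3 events in the saline libraries (1, 2, 3). The morphine libraries (4, 5, 6) had 5, 3 and 5. The groups held the same set of counts. Its 21-base exon was listed as skipped in all 6 libraries, so transcripts with and without it were assembled from each. It is exon 23 of 39 in transcript Cacna2d1-203, lies wholly in coding sequence and adds 7 codons. In the literature on this gene the alternatively spliced segments are named A, B and C, and in length and order the 21-base exon is segment C.

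The 15-base segment corresponds to B. It arises where exon 19 begins at either of 2 acceptor sites, giving an exon of 72 or 57 bases, and changes the protein by 5 codons without moving the frame. Saline 1, saline 2, morphine 4 and morphine 6 listed both forms, and saline 3 and morphine 5 listed neither. These 2 rows are the whole difference between libraries with 5 events and libraries with 3. Segment A, a 57-base exon of 19 codons at chr5:16322539-16322595 in transcript Cacna2d1-201, was in no event of any library. The gene had 1 first exon and 1 last exon, each in every library, of 5 annotated first exon sites and 6 annotated last exon sites.

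Cacna2d2, which is mutated in the ataxic and epileptic ducky mouse, had 3 events in every library: 1 first exon, 1 last exon and the skipping of 1 exon. It lies on chromosome 9 from 107399612 to 107529343. Its optional exon has the same length and place as that of Cacna2d1. Both are exon 23 of 39, lie between exons of 77 and 61 bases, start after the first base of a codon and fall 57.6% (Cacna2d2-202) and 57.2% (Cacna2d1-203) of the way into the coding sequence. The 2 exons printed above are identical at 12 of 21 bases (57.1%), against 44 of 77 in the exon before and 33 of 61 in the exon after. Thus the choice at this position was listed for both genes in all 6 libraries. Over all genes, 181 of 540 single skipped exons of at most 30 bases (33.5%) were listed in every library.

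Cacna2d3, an alpha2delta gene expressed in brain, spans 816922 bases of chromosome 14, from 28904943 to 29721864, on the minus strand. Its saline libraries had 3, 4 and 5 events and its morphine libraries 3, 4 and 5, again the same set of counts. Its 18-base exon, which adds 6 codons, was listed as skipped in saline 2, saline 3 and morphine 6. It is exon 14 of 38 and falls 42.2% into the coding sequence, so it is not at the position shared by the other pair.

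The second skipping event of Cacna2d3 was in all 6 libraries and concerns the penultimate exon. The catalogues place that exon at 28907988 to 28908067, which is 80 bases, whereas the annotated exon runs to 28908068 and has 81. The exon before it is likewise listed from 28908283, 1 base beyond the annotated boundary at 28908284. Both ends of the intron are thus shifted by 1 base in the same direction and the spliced length is unchanged. With the annotated boundaries the exon holds 27 codons, so its skipping keeps the frame. An unannotated first exon ending at 29721114 was listed in morphine 5 alone. A last exon of 7475 to 7481 bases beginning at the annotated boundary 29043581 was listed in saline 3 and morphine 6.

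The coding parts of the alternative first exons of the beta genes are printed next because they are the N-terminal ends that the listed start choices would give. They come from the same transcripts, 5′ to 3′, with the start codon in capitals.
Cacnb1-201, chr11:98022342-98022425, minus strand: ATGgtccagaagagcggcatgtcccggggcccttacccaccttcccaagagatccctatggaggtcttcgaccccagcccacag
Cacnb1-204, chr11:98018273-98018302, minus strand: ATGgaggtgcccagccggaccctggtagtg
Cacnb2-203, chr2:14604451-14604558, plus strand: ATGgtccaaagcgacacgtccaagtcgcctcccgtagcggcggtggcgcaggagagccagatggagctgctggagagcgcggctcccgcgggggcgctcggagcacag
Cacnb2-214, chr2:14824256-14824306, plus strand: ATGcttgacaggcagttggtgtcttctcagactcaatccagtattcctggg
Cacnb2-202, chr2:14873877-14873945, plus strand: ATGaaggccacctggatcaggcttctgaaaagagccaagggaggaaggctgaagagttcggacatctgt
Cacnb3-202, chr15:98632479-98632520, plus strand: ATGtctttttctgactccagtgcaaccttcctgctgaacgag
Cacnb3-201, chr15:98635169-98635213, plus strand: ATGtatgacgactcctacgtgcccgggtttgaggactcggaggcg
Cacnb4-201, chr2:52676271-52676330, minus strand: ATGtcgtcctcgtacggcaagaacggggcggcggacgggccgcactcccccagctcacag
Cacnb4-202, chr2:52558269-52558313, minus strand: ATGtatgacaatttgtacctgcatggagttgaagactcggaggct

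Cacnb3, a beta gene of neurons and smooth muscle, had 3 events in every library and was the simplest of the beta genes. Its upstream first exon, ending at 98632520 of chromosome 15, and a second one 2.693 kb downstream, ending at 98635213, were each listed in all 6 libraries. The last exon was the same in all 6. The 2 starts give different coding ends of 42 and 45 bases. The downstream one is identical to the downstream start of Cacnb4 (Cacnb4-202) at 34 of 45 bases (75.6%), and both are 45 bases long.

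Cacnb4, which is mutated in the ataxic lethargic mouse, lies on chromosome 2 from 52428320 to 52676831 on the minus strand. The saline libraries had 7, 5 and 4 events and the morphine libraries 5, 4 and 4. Saline 1 was highest, and the groups overlapped at 4 and 5. First exons ending at 52676271 and, 118 kb downstream, at 52558269 were listed in all 6 libraries. A first exon of 548 to 699 bases that overlaps the upstream one but ends at 52676021 was listed in saline 1 and 2 and morphine 4. Skipping of a 160-base exon at chr2:52556202-52556361 was listed in every library. In transcript Cacnb4-203, 154 of its bases are untranslated and 6 are coding, and the annotated start codon of that transcript lies in this exon.

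Each library listed 1 last exon under the Cacnb4 gene ID, but not the same one. The annotated last exon beginning at 52434749 was listed in saline 2 and morphine 4 and 5, and one beginning at 52437071 in saline 1. In saline 3 and morphine 6 the listed last exon lay on the opposite strand, from 52434487 to 52434635. Its splice site is that of an annotated exon (52434487 to 52434885) of A430018G15Rik, a gene on the plus strand that overlaps the end of Cacnb4. For those 2 libraries the listing is therefore uncertain as a Cacnb4 event. On the gene's own strand alone the counts were 7, 5 and 3 in saline and 5, 4 and 3 in morphine (exact permutation p = 0.7, two-sided, n = 3 per group).

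Cacnb1, the beta subunit gene of skeletal muscle excitation-contraction coupling that brain also expresses, had 3 events in each of the 6 libraries, but their kind differed. A first exon ending at 98022342 of chromosome 11 and a last exon beginning at 98003362 were in every library. The third event was a last exon of 390 bases, from 98004925 to 98005314, in saline 1, 2 and 3 and morphine 5. In morphine 4 and 6 it was instead an annotated first exon of 100 bases, 4.069 kb downstream, ending at 98018273. The number of events per gene does not show this difference, and the catalogues do not say whether the 2 events are linked. Coding length without the stop codon is 1791 bases in Cacnb1-201 and 1572 in Cacnb1-202, which ends with the 390-base exon. It is 1431 in Cacnb1-204, which begins with the 100-base exon. That transcript has an exon beginning at 98005314 and none at 98003362, where the last exon listed in morphine 4 and 6 begins. The length of 1431 bases is therefore not shown to be that of a form in those libraries.

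Cacnb2, the main beta gene of heart and also a neuronal one, held 15 of the family's 45 distinct events over 384821 bases of chromosome 2. First exons ending at 14604558, at 14739763 (135 kb downstream) and at 14873945 (269 kb downstream) were listed in all 6 libraries. The most upstream and the most downstream of these carry the coding ends of Cacnb2-203 and Cacnb2-202 printed above. The middle one belongs to Cacnb2-210, a transcript annotated without a coding sequence, and its listed length ran from 3304 to 7142 bases between libraries. A longer form of the upstream exon, ending at 14604976, was in saline 1 and morphine 6. The annotated start of Cacnb2-214, ending at 14824306, was listed in saline 2 alone. Another 5 first exons ended at sites 354 to 378 kb downstream and were listed in 1 library each, 2 in saline and 3 in morphine. Those ending at 14958888, 14963982 and 14968237 were 6521, 4221 and 8315 bases long. Their splice sites are ends of annotated exons, but of no annotated first exon, so they may not be separate starts.

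**Figure D2:**
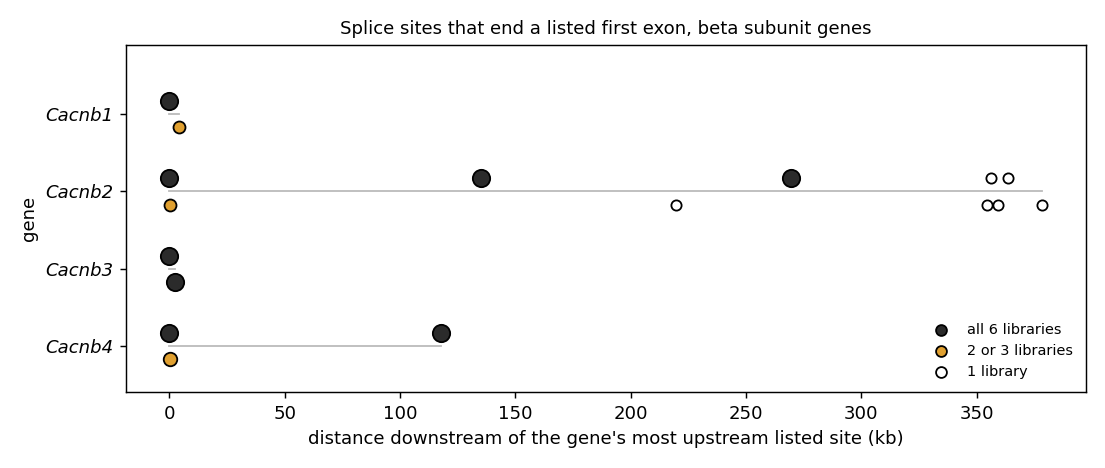
The x axis is the distance in kb of each first exon's splice site from the gene's most upstream listed site, for the 4 beta genes. Filled black circles are sites in all 6 libraries, orange circles sites in 2 or 3, and open circles sites in 1, with circles offset above and below each gene's line for legibility. Cacnb2 has black circles at 0, 135 and 269 kb and Cacnb4 at 0 and 118 kb, while the open circles of Cacnb2 beyond 354 kb come from single libraries.

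The comparison of morphine with saline asks which transcript structures of these genes went with the drug training. Cacnb2 had 5, 6 and 5 events under saline and 8, 5 and 8 under morphine, with means of 5.33 ± 0.577 and 7 ± 1.73 (SD, n = 3 each). Morphine 4 and 6 lay above every saline library and morphine 5 lay within the saline range, so the groups overlapped. The log2 ratio of events was 0.34 ± 0.21 (SE; limma, adjusted p = 0.905 over 15040 genes), and the exact permutation p was 0.4 (two-sided, n = 3 per group). For Cacnb4 the saline mean was 5.33 ± 1.53 events and the morphine mean 4.33 ± 0.577 (SD, n = 3; log2 ratio -0.25 ± 0.22, SE; limma adjusted p = 0.905; exact permutation p = 0.7). Cacna2d1 had 4.33 ± 1.15 in both groups and Cacna2d3 4 ± 1 in both (SD, n = 3), and Cacnb1, Cacnb3 and Cacna2d2 had 3 in all 6 libraries. For these 5 genes the log2 ratio was 0 and the exact permutation p was 1 (n = 3). The smallest exact p for 3 against 3 is 0.1.

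None of the 7 genes (0) had groups that did not overlap, where 3.07% of 15040 tested genes did. By limma 0 of 7 passed an adjusted p of 0.05, where 0.638% of the tested genes did. An unadjusted limma p under 0.05 was found in 0 of 7, where 480 of the 15040 tested genes had one. The genes that passed the adjusted threshold were not always those with large changes. Pdcd2l, with 3 events in every saline and 2 in every morphine library, passed (limma adjusted p = 2.1e-07). Apba3, with 2, 2 and 2 against 5, 11 and 9, did not (limma adjusted p = 0.374). Of the 45 events, 0 were in all libraries of 1 group and absent from the other, where 0.665% of all events were. With sets this small, counts of 0 are near these shares. Without morphine replicate 5, Cacnb2 no longer overlapped (1 of 7 genes), where 6.75% of the tested genes then did not. In those 5 libraries 3 of the family's 43 events separated the groups, where 2.02% of all events did. They were a first exon and a last exon of Cacnb1 and a retention event of Cacnb2. The family's events summed to 29, 29 and 26 in saline and 30, 25 and 31 in morphine.

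**Figure D3:**
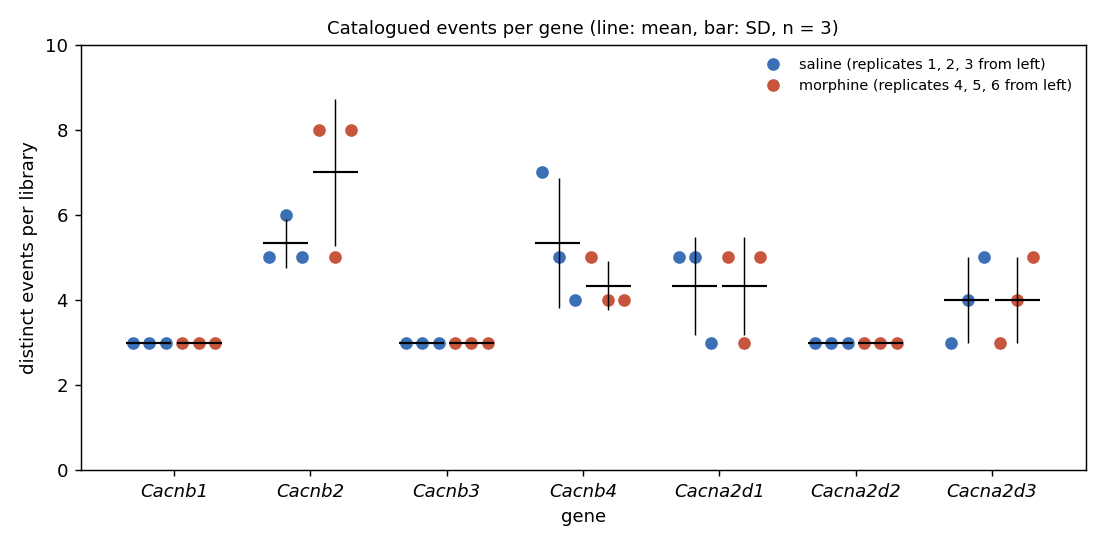
Distinct events per library on the y axis for each gene on the x axis, with saline libraries in blue and morphine libraries in red, horizontal lines for the means and vertical bars for the SD (n = 3). The groups overlap in every gene, and in Cacnb2 the morphine libraries at 8 stand above saline while morphine 5 is at 5.

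The difference in Cacnb2 came from events coded as intron retention. No saline library listed one (0 in each), while morphine 4 listed 3, morphine 5 listed 0 and morphine 6 listed 2. The intron of 3114 bases from 14960792 to 14963905, between exons 5 and 6 of Cacnb2-203, was listed as retained in morphine 4 and 6. The stretch from 14967942 to 14971642, which holds the intron between exons 7 and 8, was listed in morphine 4 alone. Both lie in the coding region downstream of all the recurrent starts. The same stretch can be entered under an exact and an approximate retention code. With each stretch counted once, Cacnb2 had 5, 6 and 5 events in saline and 7, 5 and 7 in morphine (exact permutation p = 0.4, n = 3). With first and last exons alone its log2 ratio was 0. The 3114-base intron also lay within first exons listed in saline 2 (14959923 to 14968237) and morphine 4 (14959762 to 14963982). First exons are not counted as retention, so a count of 0 under saline does not mean that no saline transcript kept this intron.

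Cacnb4 was the other gene with retention events, 2 in saline 1 and 0 in the other 5 libraries. They kept the intron between exons 4 and 5 of Cacnb4-201, which is 5255 bases long, and the pair of introns across exons 6, 7 and 8. Retention of all genes together numbered 7425, 5074 and 5010 events in saline and 7523, 6361 and 7018 in morphine. The 3 libraries with events coded as retention in this family, saline 1 and morphine 4 and 6, had the most retention events over all genes. The part of these library totals in the Cacnb2 and Cacnb4 counts was not tested.

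**Figure D4:**
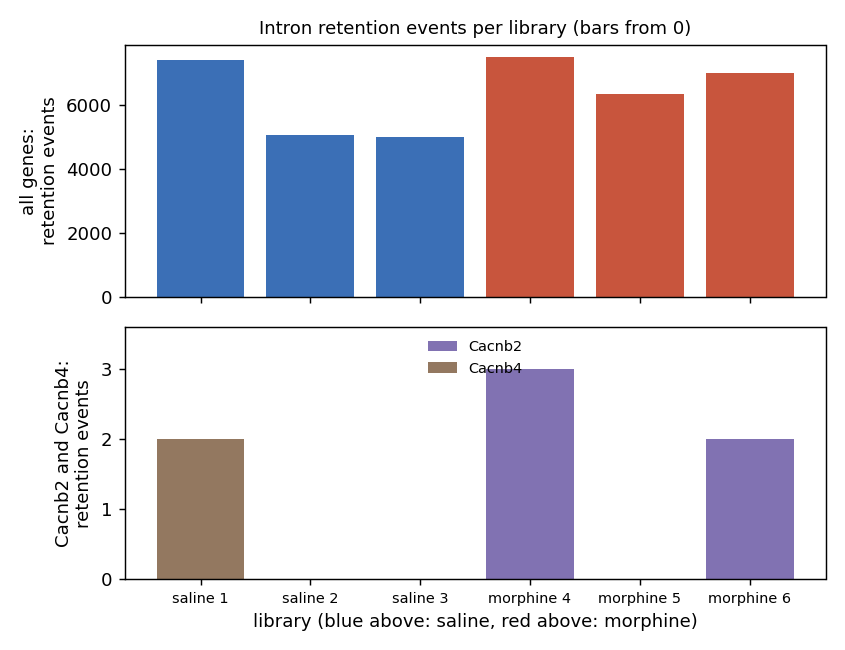
The upper bars give the intron retention events of all genes in each library and the lower bars those of Cacnb2 and Cacnb4. Cacnb2 retention appears in morphine 4 (3 events) and morphine 6 (2 events) and Cacnb4 retention in saline 1 (2 events), the libraries with the highest bars above.

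The auxiliary genes had few events beside the pore genes they serve. The 7 genes had a median of 4 events per library, all tested genes a median of 2.67, and 9 tested pore genes a median of 14.5. The P/Q-type pore gene Cacna1a had 30, 27 and 18 events under saline and 11, 26 and 26 under morphine, and the N-type gene Cacna1b 23, 37 and 12 against 13, 31 and 11. Both overlapped between the groups. Of the 9 tested pore genes, the L-type gene Cacna1d was above in every morphine library (19, 9 and 19 against 23, 24 and 26 events) and the T-type gene Cacna1g above in every saline library (14, 14 and 23 against 13, 13 and 10). These are 2 of 9 genes, and the list was not tested. The other 7 overlapped, among them the R-type gene Cacna1e with 18, 24 and 6 events under saline and 20, 28 and 19 under morphine. Over all tested genes 3.07% did not overlap, but that share is not a like baseline for the pore genes. It includes 3423 genes (22.8%), among them Cacna1s, whose event number never varied, so their groups could not separate. Tested genes also had fewer events (median 2.67 against 14.5). Cacna1f, a retinal L-type gene, averaged too few events to be tested.

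The other alpha2delta and related genes, the gamma genes and the RGK and Stac genes had few events, with list medians of 2.17, 2.25 and 2.33. Cacna2d4, the alpha2delta gene of retina, had 2 events in all 6 libraries, and Cachd1, which encodes an alpha2delta-like protein, had 2, 2 and 2 under saline and 3, 3 and 2 under morphine, which overlap. Of 8 gamma genes, 6 overlapped, among them Cacng4, Cacng5 and Cacng7 at 2 or 3 events a library. Cacng3 (2, 2 and 2 against 3, 3 and 4) and Cacng8 (2, 2 and 2 against 3, 3 and 3) did not overlap. Both are AMPA receptor auxiliary subunits, as are Cacng4, Cacng5 and Cacng7, which overlapped. Of 7 genes for RGK and Stac proteins, which inhibit or tune these channels, Stac2 had 5, 4 and 4 events in saline and 2, 2 and 2 in morphine, and 6 overlapped. The share of all tested genes without overlap was 3.07%.

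Among 18 partners and ligands 0 had groups apart. Rims1 and Rims2, active zone proteins that bind beta subunits, varied widely: Rims1 had 24, 34 and 17 events under saline and 46, 13 and 21 under morphine, and Rims2 25, 15 and 23 against 27, 21 and 13. Ahnak, a very large scaffold protein that binds beta subunits, had 20, 32 and 27 events under saline and 30, 47 and 19 under morphine. No list count was tested as a set.

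The genes whose counts over the 6 libraries were most like a member's are given as a description, without a test. Cacnb2 was most like Usp1 (Pearson r = 0.99) and Camk2a (r = 0.98), among 2961 genes averaging 5 events or more. Cacnb4 was most like Bhlhe41 (r = 0.99) and Ece2 (r = 0.98). Cacna2d3 was most like Rnpepl1 (r = 0.98) and a gene ID without a symbol in the annotation (r = 0.96). With 6 libraries and small whole numbers such values are common: 24, 29 and 15 genes passed r = 0.9 for Cacnb2, Cacnb4 and Cacna2d3. All points share the libraries' event totals.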

How the data were processed

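RNA of 3 saline and 3 morphine nucleus accumbens samples was measured. Each deposited file lists transcript events with 20 type codes, a gene ID, positions and a strand, per the file headers. No source used here names the assembler, event caller or genome build. The column headed fpkm in the deposited files holds whole numbers from -24 to 0 and was not used. Distinct events per gene and library were counted without the OFF rows, which repeat an event for its partner transcript, and grouped into 5 classes. Gene IDs were matched to GENCODE M21 (GRCm38), 15815 of 15939 with a symbol, and positions are read on that build because 63.6% of distinct events have annotated boundaries.

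Groups were compared per gene with limma 3.58.1 in R 4.3.3 (lmFit, eBayes with trend) on log2(events + 0.5), over the 15040 genes averaging 0.5 events or more, with Benjamini-Hochberg adjustment, and with a two-sided exact permutation test of mean log2 events. The limma script was tested on simulated independent counts, with changes placed only in genes averaging more events than any member. That check does not cover counts as low as those of the members. Members, lists and tests were chosen with earlier results of these data known. All members were named. In other lists, genes whose groups did not overlap were named, and at most 3 others with the most events. Cacna1f, Pdcd2l and Apba3 were chosen after their values were seen. Single events were to be named when listed in every library, or in all libraries of 1 group and none of the other. Skipped coding exons listed in at least 3 libraries were to be named too. Other single events, some of them in 1 library, were named outside that rule. Alternatives changed the pseudocount, filter, trend, scaling, events counted and libraries.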

Additional observations from a re-analysis of the deposited data

How the results depend on the processing

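Read depth is unknown, so an unlisted event may reflect too few reads. Each of the 7 log2 ratios was recomputed under 17 alternatives planned in advance. No ratio changed sign where it was not 0 and 0 passed an adjusted p of 0.05. Cacnb2 ranged from 0 (first and last exons alone) to 0.59 (partner rows counted), with limma adjusted p from 0.406 to 1, and Cacnb4 from -0.42 to -0.05. Cacna2d1 and Cacna2d3, at 0, ranged from -0.22 to 0.22 and from -0.17 to 0.17. Leaving out 1 library gave 0 to 1 genes whose groups did not overlap and 0 to 3 events in 1 group alone, the higher values without morphine replicate 5. With alternatives added after seeing the data, the log2 ratio was 0.22 for Cacnb2 with each retained stretch counted once and -0.25 for Cacnb4 on its own strand. Over all genes limma called 96. It called 80 to 122 when the scaling or the events counted were changed, and 250 to 285 when 1 library was left out; the cause was not tested. No paired analysis was possible because the groups share no replicate number.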
